A study of Mus musculus with 47 samples.

Results

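The genes described here code for the cell contact molecules by which epithelial-like cells and neurons are told apart. They are Cdh1, Epcam, Krt8, Krt18, Cldn6 and Cldn7 on the epithelial side and Cdh2, Ncam1, L1cam and Nrcam on the neural side. They were chosen by name, through the RefSeq mRNA names of the 3′ UTR intervals in the files. The 10 genes have 15 of the 28190 mRNA transcripts, and these fall on 12 of the 20737 rows that differ in their intervals. The data are 47 SLAM-seq libraries of P19 cells, a male mouse embryonal carcinoma line that forms neurons with retinoic acid. The cells are wild type and 1 line, and libraries were prepared from bulk RNA. Undifferentiated cells (D0) were kept in serum medium and labeled with 20 µM 4-thiouridine (4sU). Cells at day 6 of differentiation (D6) had been in NDiff 227 medium with 500 nM retinoic acid and were labeled with 500 µM 4sU. The dose, the medium and the state changed together and cannot be told apart. In the catabolic assay cells took up 4sU for 15 h (the methods write 13 h in another place) and were then kept in 10 mM UTP, and in the anabolic assay 4sU was added at 0 h. The methods and the series design place the 4 time points of both assays at 0, 3, 6 and 9 h, but in the sample labels they read 0, 1, 3 and 9. Each state, assay and time had 3 libraries, save 2 for the catabolic 6 h point at D6. The series design calls them biological replicates.

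Epithelial cells hold together through adherens junctions built on E-cadherin, through tight junctions built on claudins, and through desmosomes tied to keratin filaments. Neural cells use N-cadherin and adhesion molecules of the immunoglobulin superfamily, among them NCAM, L1 and NrCAM, which act in axon growth and bundling. The exchange of E-cadherin for N-cadherin is a textbook step of neural tube formation, and repressors of the Snail and Zeb families are known to silence epithelial genes through E-boxes of the sequence CACCTG.

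This E-box was searched for on both strands, as CACCTG or CAGGTG, in RefSeq promoters of GRCm38.p6 that run from 250 bases before to 50 bases after a gene's start. Of the 10 genes, 7 matched the promoter table, all but Cdh1, Cdh2 and Ncam1, and the promoter of Krt8 is not described here. The windows below show matches in Epcam, Krt18, Cldn6, Cldn7 and Nrcam, on the strand of the gene with the motif in capitals.
Epcam at -187, chr17:87635780-87635809: gccagtagggccCACCTGctggaggaccgg
Epcam at -19, chr17:87635948-87635977: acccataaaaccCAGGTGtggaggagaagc
Krt18 at -214, chr15:102027990-102028019: aggggctaacacCACCTGctatcctttgtg
Cldn6 at -93, chr17:23679260-23679289: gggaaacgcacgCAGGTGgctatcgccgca
Cldn6 at 41, chr17:23679385-23679414: aatcttagcagtctcttttgCAGGTGagcc
Cldn7 at -97 of its second promoter, chr11:69965312-69965341: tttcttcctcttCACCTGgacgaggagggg
Cldn7 at -57 of its second promoter, chr11:69965352-69965381: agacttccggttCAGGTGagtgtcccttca
Nrcam at -205, chr12:44328668-44328697: agcgcgacctctCAGGTGagaggccaccca
Positions are those of the first base of the motif, counted from the start site. Of the 6 genes described, Epcam, Krt18, Cldn6, Cldn7 and Nrcam held the motif and L1cam did not. Cldn7 held it in its second promoter only, and L1cam in neither of its 2 promoters. This count is per gene, while the shares that follow are per promoter. Over the whole table, 20.2% of 32851 promoters held it at least once and 2.88% at least 2 times. A match describes these letters only.

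Reads on 3′ UTRs ranged from 3447888 to 11677046 over the 24 D0 libraries and from 1489528 to 7930149 over the 23 D6 libraries. Levels are given in CPM, the reads of a row over the library total of the joined mRNA rows (95.7% to 97.3% of these reads) times a TMM factor, so that libraries share a common scale. The factors, set over all 47 libraries, ran from 0.929 to 1.05 at D0 and from 0.765 to 1.08 at D6. In bulk RNA, fewer cells of a type and less RNA per cell cannot be told apart. The summed level of 9 neuron markers was 504 to 729 CPM at D0 and 7712 to 12720 CPM at D6, without overlap. The 5 neural progenitor markers summed to 55 to 126 CPM at D0 and 541 to 1238 CPM at D6, likewise without overlap. Not all of them rose. Without 4sU, Hes5 went from 0.816 to 798 CPM and Fabp7 from 2.30 to 181 CPM, and both passed in edgeR. Sox1, Nes and Pax6 did not pass (log2 1.36, 0.45 and -0.14, adjusted p 0.0627, 0.732 and 0.952). The 7 embryonal carcinoma markers summed to 1052 to 2203 CPM at D0 and 454 to 996 CPM at D6. Most of the sum at D6 was Sox2, which neural progenitors also express. It stood at 989 and 797 CPM without 4sU and did not pass (log2 -0.32, adjusted p 0.644). Pou5f1 and Utf1 had 5 reads each in the 3 D6 libraries without 4sU, against 750 and 1805 at D0, and Dppa5a and Zfp42 were at 0 in both states. The 5 surface ectoderm markers summed to 16.2 to 74.6 CPM at D0 and 0 to 9.46 CPM at D6, with Krt5 and Krt14 at 0 throughout. The 9 markers of mesoderm, muscle and fibroblast summed to 90.3 to 160 CPM at D0 and 0.343 to 33 CPM at D6. The 5 glia markers overlapped, at 4.87 to 64.0 CPM and 0 to 183 CPM, as did the 8 endoderm markers, at 3.16 to 42.8 CPM and 0 to 30.5 CPM, and the 5 of endothelium and blood, at 0 to 17.4 CPM and 0 to 9.98 CPM. The part of other cell types in the results on the epithelial genes was not tested.

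Reads of the epithelial genes were few or none at D6. Cdh1, which encodes E-cadherin, was read from its 3′ UTR at chr8:106668616-106670247. Its level at D0 had a lowest, median and highest value of 16.6, 42.2 and 84.7 CPM, and at D6 of 0, 0.305 and 14.1 CPM. The 24 D0 libraries held 7343 Cdh1 reads and the 23 D6 libraries 212. No D6 library reached the lowest D0 library, overall or at any of the 8 combinations of assay and time. Of all rows with a mean of at least 0.5 CPM, 1.82% had every D6 library below every D0 library and 1.75% had every D6 library above.

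Epcam encodes EpCAM, an epithelial cell surface glycoprotein of stem cells and carcinomas, and its 3′ UTR is at chr17:87650470-87651127. At D0 it lay between 8.93 and 42.3 CPM with a median of 22.2 CPM. At D6 the median was 0 and the highest value 8.48 CPM, and 10 of the 23 libraries had any read. The states did not overlap, overall or at any of the 8 combinations of assay and time.

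The reads of Cdh1 and Epcam left at D6 sat in a few libraries. For Cdh1, 5 libraries with at least 10 reads held 191 of the 212 reads. They were replicate 16 at 9 h of the catabolic assay with 32 reads and, in the anabolic assay, replicate 38 at 0 h with 28, replicate 42 at 3 h with 43, replicate 44 at 6 h with 25 and replicate 52 at 9 h with 63. For Epcam, 84 of the 97 reads were in replicate 16 at 9 h of the catabolic assay (45 reads) and replicate 39 at 0 h of the anabolic assay (39 reads). The other D6 libraries had at most 5 reads of either gene. Replicates 38, 39 and 42 had little or no label to carry. In replicate 52, where 4.14% of all covered T positions were converted, Cdh1 had 0 conversions at 2186 covered T positions, and in replicate 44, at 2.25%, it had 0 at 700. In replicate 16, at 0.945%, Cdh1 had 0 at 1121 and Epcam 0 at 821. Where these reads came from was not tested.

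Krt8 and Krt18 encode the keratin pair of simple epithelia. The 3′ UTR of Krt8 (chr15:101996711-101996939, minus strand) had 23 reads in 6 of the 24 D0 libraries, at most 0.918 CPM, and no read at D6. Krt18 (chr15:102031962-102032026), whose interval is 65 bases long with 8 T positions, had 204 reads in 7 D0 libraries and none at D6. Of these, 81 were in 1 library without 4sU, replicate 55, at 11.01 CPM. The median at D0 was 0 for both genes, so that the states overlapped. Both genes have near-identical pseudogenes, and the files list no read with several positions, so that reads of these short intervals are uncertain.

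Claudins seal tight junctions. Cldn6, a claudin of early embryonic epithelium (chr17:23681724-23682446), had 232 reads in 13 of the 24 D0 libraries, with the highest level at 14.8 CPM, and no read in any D6 library. With 11 D0 libraries at 0, the states overlapped. Cldn7 (chr11:69967718-69967886) had no read in all 47 libraries, so that no change could be measured.

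**Figure D1:**
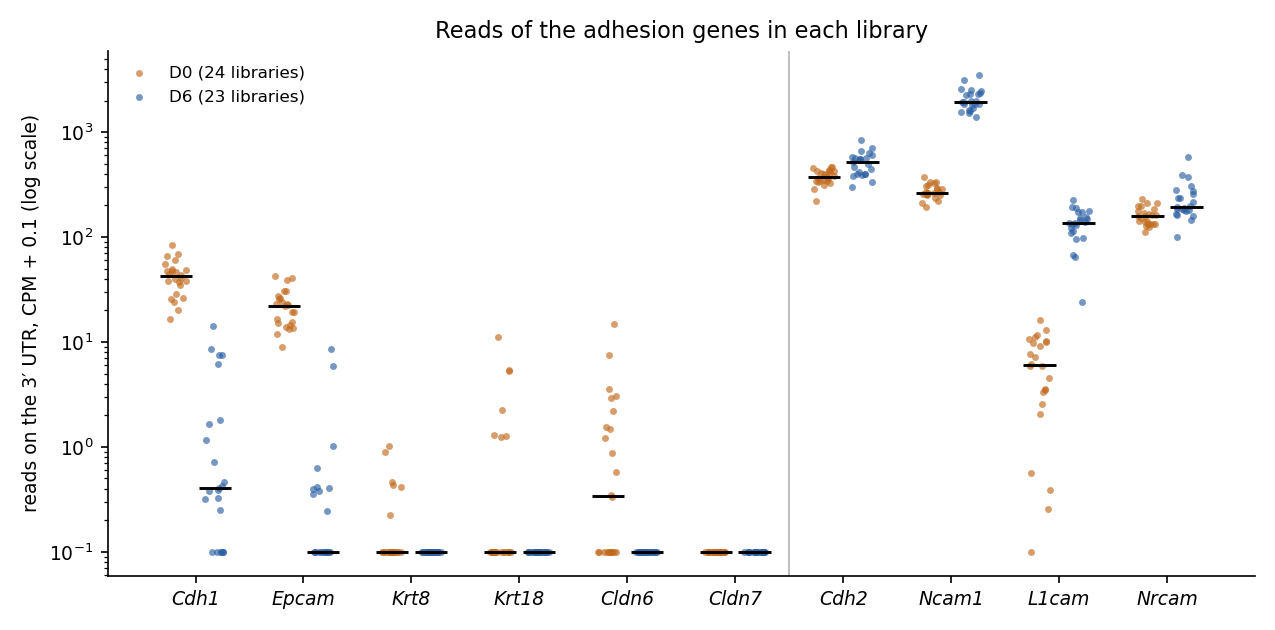
CPM + 0.1 on a log axis for each gene, with 1 point per library (24 at D0, 23 at D6) and bars at the medians. The states are apart for Cdh1, Epcam, Ncam1 and L1cam and overlap for Cdh2 and Nrcam, and Krt8, Krt18 and Cldn6 are at 0 in every D6 library.

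The neural genes did not move as a block. Ncam1 encodes NCAM, which binds itself on neighbouring cells and carries polysialic acid in the developing nervous system. Its main 3′ UTR (chr9:49502129-49505442, minus strand) had a lowest, median and highest level of 195, 265 and 373 CPM at D0 and 1383, 1955 and 3536 CPM at D6. Every D6 library was above every D0 library. Ncam1 was thus already read in every undifferentiated library, with 47016 reads in all, against 183804 at D6.

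A separate 3′ UTR of Ncam1, counted at chr9:49515139-49517505, ends the shorter mRNA NM_010875.3. This mRNA encodes the form held by a lipid anchor in place of a transmembrane stretch. In GENCODE vM21 this mRNA has 16 exons and 725 codons. The mRNAs of the main end found there have 18 exons and 849 or 848 codons. The last exon of the shorter mRNA in GENCODE is at chr9:49517278-49517582, and the counted interval runs beyond it. The shorter end had 91 reads in 12 of the 24 D0 libraries and 571 reads in 14 of the 23 D6 libraries. Its highest level was 7.49 CPM at D0 and 34.4 CPM at D6, and the states overlapped.

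L1cam encodes L1, an axonal adhesion molecule (chrX:73853780-73855034, minus strand). It lay between 0 and 16.03 CPM at D0 with a median of 6.00 CPM, and between 23.7 and 226 CPM at D6 with a median of 137 CPM. No library of the states overlapped, and the reads came to 1108 at D0 and 12217 at D6.

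Cdh2 encodes N-cadherin and lies on chromosome 18. It was read in undifferentiated cells at 222, 377 and 464 CPM as lowest, median and highest, and at D6 at 301, 520 and 840 CPM. The ranges of the states overlapped. Nrcam, whose product clusters sodium channels with ankyrin at nodes of Ranvier and guides axons (chr12:44598588-44601846), stood at 111, 157 and 232 CPM at D0 and at 101, 192 and 581 CPM at D6. Its ranges overlapped as well. N-cadherin mRNA was read in all 47 libraries, and E-cadherin mRNA in all 24 of D0 and 17 of 23 at D6.

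Whether reads differed between the states was tested with edgeR across all rows, first in the libraries of the anabolic assay at 0 h, which had not received 4sU. Of 11055 rows, 12.3% passed an adjusted p of 0.05, 7.08% higher and 5.19% lower at D6. In the 3 D0 libraries Ncam1 stood at 334, 254 and 316 CPM, and in the 3 D6 libraries at 2248, 1815 and 1847 CPM. The log2 change was 2.71 (SE 0.234, adjusted p 3.97e-05), a 6.54-fold rise. L1cam stood at 3.26, 16.03 and 9.08 CPM at D0 and at 149, 133 and 109 CPM at D6. It rose by 3.78 on the log2 scale (SE 0.627, adjusted p 0.00283). Both genes passed in each fit that left out a library.

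Cdh1 stood at 40.1, 68.4 and 40.7 CPM in the 3 D0 libraries without 4sU and at 0.22, 8.52 and 0.15 CPM at D6. Replicate 38 held nearly all D6 reads. The log2 change of -4.12 (SE 1.4) did not pass, with an adjusted p of 0.0841. It passed without replicate 38, at -7.94 (adjusted p 0.00618), with DESeq2, at -4.06 (adjusted p 0.00957), and with no filter on low counts, at -4.09 (adjusted p 0.0359). Epcam stood at 27.3, 11.8 and 13.2 CPM at D0 and at 0, 0 and 5.86 CPM at D6, with a log2 change of -3.12 (SE 2.01, adjusted p 0.404). All its D6 reads were in replicate 39, without which none were left and the adjusted p was 0.0720. Cdh2 was at 462, 316 and 339 CPM at D0 and at 601, 420 and 499 CPM at D6. Its log2 difference of 0.45 (95% interval -0.077 to 0.97, adjusted p 0.361) did not pass. Nrcam was at 127, 232 and 132 CPM and at 216, 281 and 234 CPM, with a log2 difference of 0.56 (95% interval -0.084 to 1.21, adjusted p 0.347). Krt8, Krt18, Cldn6, Cldn7 and the shorter end of Ncam1 were under the filter on low counts.

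The libraries taken after 15 h of 4sU form a second comparison with its own 3 and 3 libraries. Here 14% of 10772 rows passed, 7.23% higher and 6.73% lower. Cdh1 stood at 66.6, 16.6 and 25.9 CPM at D0 and at 0, 0 and 0.61 CPM at D6. It had 428 reads against 2. With the 3 libraries of a state pooled, this was a ratio of 219 in CPM (95% counting interval 60.3 to 1815). The change passed with an adjusted p of 0.0137. D0 replicate 25 held 266 of the 428 reads. Without it the fitted log2 change went from -7.34 to -6.52 and the adjusted p was 0.135. Epcam stood at 42.3, 40.7 and 8.93 CPM at D0 and at 0.93, 0 and 0.31 CPM at D6. It fell by 5.97 on the log2 scale (SE 1.59, adjusted p 0.0299). That call was lost without D0 replicates 25 (adjusted p 0.128) or 26 (0.102) and without D6 replicates 8 (0.0565) or 9 (0.0674).

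Ncam1 stood at 267, 338 and 195 CPM at D0 after 15 h and at 1557, 1383 and 1587 CPM at D6, a log2 rise of 2.57 (SE 0.241, adjusted p 6.41e-05). L1cam stood at 11.01, 0.46 and 0 CPM at D0 and at 96.7, 68.1 and 131 CPM at D6, and rose by 4.74 (SE 1.23, adjusted p 0.0273). Its call was lost without D6 replicates 7 (adjusted p 0.0868) or 9 (0.0835) or D0 replicate 26 (0.0562). Of the 46 reads at D0, 44 lay in replicate 25, and without that library the fitted change was 8.51 (adjusted p 0.000689) and rested on 2 reads at D0. Cdh2, at 342, 222 and 342 CPM and at 449, 400 and 520 CPM, differed by 0.66 (95% interval 0.16 to 1.16, adjusted p 0.116). Nrcam, at 199, 158 and 143 CPM and at 192, 182 and 101 CPM, differed by -0.0071 (95% interval -0.65 to 0.64, adjusted p 0.993). Cldn6, under the filter, had 14.8, 0.23 and 3.46 CPM at D0 and no read at D6.

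**Figure D2:**
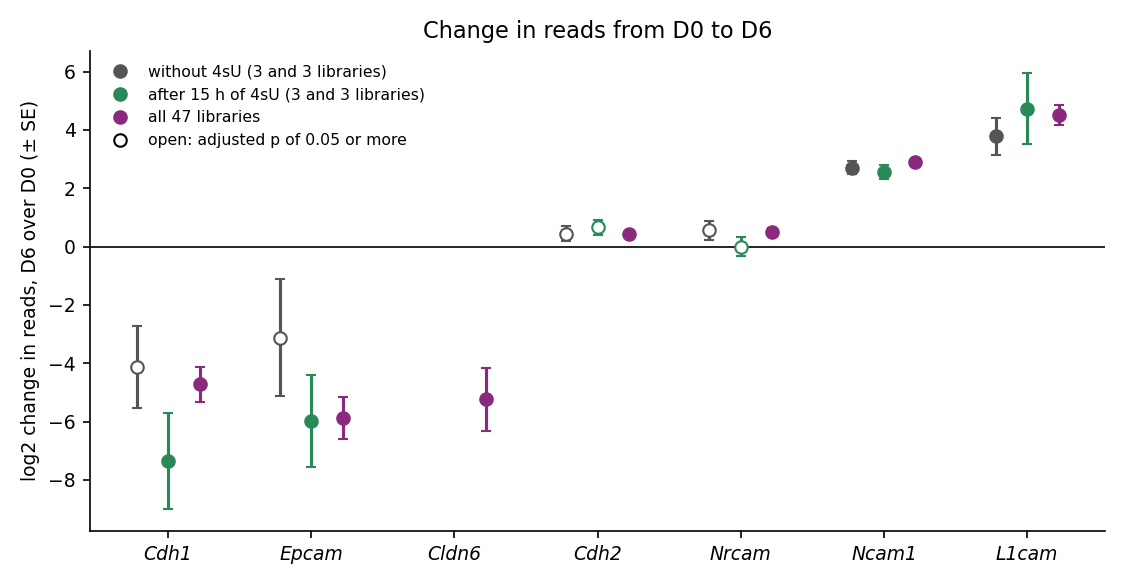
Log2 change in reads from D0 to D6 with its standard error for 7 genes, without 4sU, after 15 h of 4sU and over all 47 libraries, with open points where the adjusted p was 0.05 or more. Ncam1 and L1cam are above 0 with filled points in each fit, Cdh1 and Epcam are open without 4sU and filled in the others, and Cldn6 was tested over all 47 libraries only.

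Over all 47 libraries, with assay and time as covariates, 48.5% of 13364 rows passed, 20.4% higher and 28.1% lower, and the median row stood at -0.24 on the log2 scale. With nearly every second row called, a call in this fit sets a gene little apart. Relative to D0, Ncam1 was at 2.91 (SE 0.0873), L1cam at 4.52 (SE 0.346), Cdh1 at -4.72 (SE 0.592), Epcam at -5.89 (SE 0.720) and Cldn6 at -5.24 (SE 1.07), each with an adjusted p of 8.60e-05 or less. Cldn6 had no read at D6, so that its fitted change depends on the prior count. Cdh2 reached 0.44 (SE 0.0937, adjusted p 7.65e-05) and Nrcam 0.50 (SE 0.140, adjusted p 0.00232), sizes like those seen without 4sU. The shorter end of Ncam1 reached 3.45 (SE 1.03, adjusted p 0.00397), and it had not passed after 15 h of 4sU (2.53, SE 2.28, adjusted p 0.574).

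Whether 15 h of 4sU went with other read levels was tested in each state. Between 15 h of 4sU and none, no member passed in either state. At D0 no row of 10653 was called by edgeR, 212 had an unadjusted p under 0.05, and DESeq2 called 2. At D6, 1 of 10730 rows was called, or 0.00932%, and for the difference between the states 1 of 12177, or 0.00821%. An unadjusted p under 0.05 was found for 615 rows at D6 and 591 for the difference, and DESeq2 called 177 and 55. Ncam1 at D6 had a log2 difference of -0.35 (95% interval -0.63 to -0.066, adjusted p 0.778), and Nrcam one of -0.59 (95% interval -1.15 to -0.021, adjusted p 0.866). The intervals are too narrow for so few libraries. That of Nrcam leaves out 0 although its unadjusted p in edgeR was 0.0580.

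Other adhesion genes were followed through lists, without 4sU. Of 36 epithelial adhesion genes, 13 passed the filter on low counts, 3 fell and none rose, against 5.19% of all rows called lower and 7.08% higher, with a median log2 change of -2.42 against -0.047 over all rows tested. Genes with few reads in a state, such as Dsg2 and Epcam at D6, passed the filter through the other state, which bears on the direction of this count and median. Leaving out the genes described above, 3 of 11 fell. After 15 h of 4sU 5 of 13 fell, against 6.73% of all rows, Cdh1 and Epcam among them. Lsr, a tricellular tight junction protein, went from 177 to 37.7 CPM (log2 change -2.24, SE 0.406, adjusted p 0.00483). Itga6, the laminin receptor integrin alpha 6, went from 447 to 90.3 CPM (-2.32, SE 0.425, adjusted p 0.00512). Dsg2, a desmosomal cadherin, had 293 reads at D0 and none at D6, which makes it at least 73.6-fold lower with a floor of 3 reads over the 3 libraries (adjusted p 0.0469). After 15 h of 4sU, however, Dsg2 had 35 reads at D6 and 158 at D0 and did not pass (adjusted p 0.594). F11r, the junctional adhesion molecule JAM-A, stood at 78.9 and 12.3 CPM and did not pass (adjusted p 0.0837).

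The neural adhesion list has 48 genes, of which 47 are in the files and 38 passed the filter. Of these 19 rose and 1 fell, against 7.08% and 5.19% of all rows, with a median log2 change of 2.12. Here too genes such as Alcam, Chl1 and Celsr3, with 1, 2 and 3 reads at D0, passed the filter through D6 and could hardly have fallen. Without Cdh2, Ncam1, L1cam and Nrcam, 17 of 34 rose and 1 fell. After 15 h of 4sU 14 of 36 rose, against 7.23% of all rows, and 1 fell, against 6.73%, Tenm4 (-1.39, adjusted p 0.0340). Nrxn3, a presynaptic neurexin, went from 0.282 to 217 CPM (log2 change 9.37, SE 0.663, adjusted p 1.01e-05). Celsr3, an atypical cadherin that guides axon tracts, had 3 reads at D0 and 1762 at D6 (adjusted p 7.36e-05). With the 3 libraries of a state pooled, this was a ratio of 780 in CPM (95% counting interval 266 to 3785). After 15 h of 4sU the distance was far smaller, with 322 and 1702 reads and 25.7 and 138 CPM (log2 change 2.49, adjusted p 0.0343). The giant cadherin Fat3 went from 29.3 to 236 CPM (3.00, SE 0.383, adjusted p 0.000616). Nectin3, which pairs with other nectins at adherens junctions, was the gene that fell, from 138 to 52.1 CPM (-1.41, adjusted p 0.0393), and it did not pass after 15 h (-1.14, adjusted p 0.0539). The counting intervals of Celsr3 and Cdh1 take pooled reads as independent and leave out the spread between libraries. Reads carried no molecular identifiers, so copies of the same molecule are not accounted for either.

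**Figure D3:**
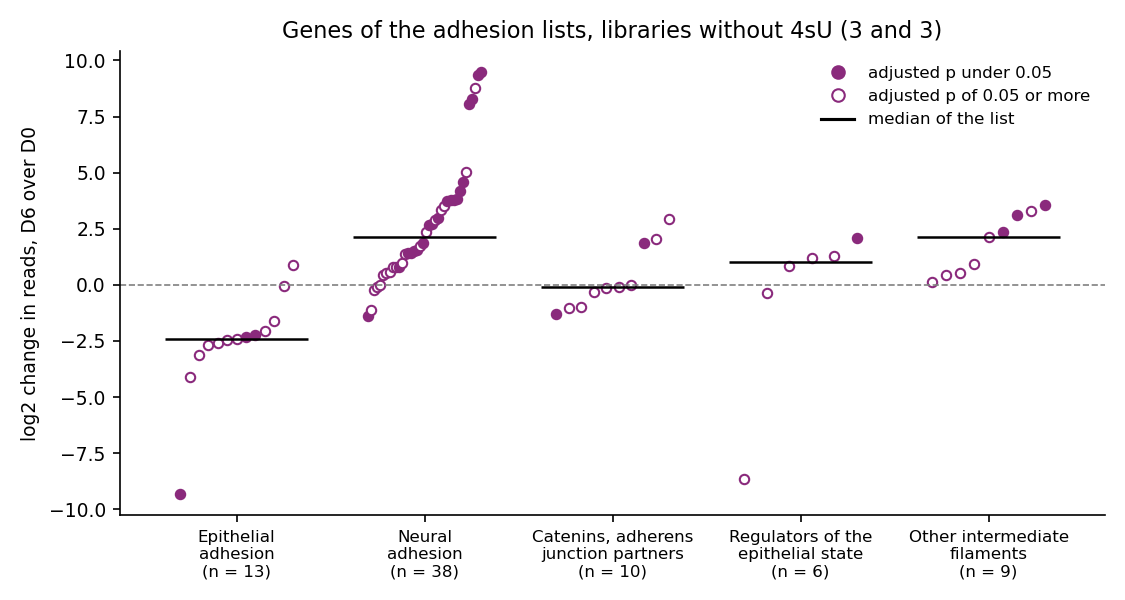
Log2 change in reads from D0 to D6 without 4sU for each tested gene of 5 lists, with filled points where the adjusted p was under 0.05 and bars at the medians. The epithelial list has its median at -2.42 and the neural list at 2.12, and the points for genes with 3 reads or fewer in a state, such as Dsg2, Rest and Celsr3, are fitted values that depend on the prior count.

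E-cadherin and N-cadherin share their catenins and other partners. All 10 on the list passed the filter, 1 rose and 1 fell, against 7.08% and 5.19% of all rows, and the median was -0.12. Beta-catenin, Ctnnb1, had a log2 difference of -0.02. Vezt, which links cadherin and catenin to myosin, rose by 1.87 (adjusted p 0.0300) and Nectin2 fell by 1.31 (adjusted p 0.0480). The neural alpha-catenin Ctnna2 stood at 6.94 and 53.5 CPM, and its change of 2.96 did not pass (SE 1.21, adjusted p 0.153). Pkp4, an armadillo protein of junctions, stood at 139 and 70.9 CPM (adjusted p 0.187). After 15 h of 4sU, Vezt did not pass (1.24, adjusted p 0.267), and the 1 gene that rose was Ctnnd2, a neural catenin (3.38, adjusted p 0.0137). Nectin2 and Pkp4 fell. Of the 10 genes 1 thus rose and 2 fell, against 7.23% and 6.73% of all rows in that comparison.

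Among 19 regulators of the epithelial state, 6 passed the filter and 1 rose, against 7.08% of all rows. This was Tcf4, an E-box binding E-protein, from 203 to 877 CPM (log2 change 2.11, SE 0.242, adjusted p 0.000297). The repressors Zeb1, at 80.5 and 198 CPM, and Zeb2, at 36.9 and 85.1 CPM, did not pass (adjusted p 0.0903 and 0.170). Rest, which silences neuronal genes outside neurons, had 152 reads at D0 and none at D6 without 4sU (adjusted p 0.0871), and 193 and 57 reads after 15 h. Of 11 other intermediate filament genes, 9 passed the filter and 3 rose, against the same 7.08%. They were the neuronal filaments Ina, by 3.10 (SE 0.293, adjusted p 7.74e-05), Nefm, by 3.54 (SE 0.358, adjusted p 0.000118), and Nefl, by 2.36 (SE 0.496, adjusted p 0.0107). Vim, the vimentin of progenitors and mesenchyme, stood at 785 and 1474 CPM and did not pass (0.92, adjusted p 0.0854). It passed after 15 h of 4sU (0.96, SE 0.191, adjusted p 0.00706).

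Synthesis and decay were followed by T>C conversions, which mark RNA made while 4sU was present. The conversion rate is the share of covered T positions read as C. Over all 3′ UTRs together it was 1.42% ± 0.0635 (SD, n = 3) after 15 h of 4sU at D0 and 4.63% ± 0.339 (SD, n = 3) at D6, and without 4sU 0.171% and 0.166%. Rates could be followed in both states for Cdh2, Ncam1 and Nrcam. Cdh1 and Epcam could be followed at D0 only and L1cam at D6 only, and the keratins and claudins in neither state. Cdh1, Epcam and L1cam also had reads in the other state, but too few covered T positions there after 15 h of 4sU. L1cam had 44, 2 and 0 reads in the D0 libraries after 15 h.

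After 15 h of 4sU, Cdh2 had rates of 1.84%, 1.79% and 1.41% at D0 and of 4.74%, 6.85% and 3.07% at D6. Ncam1 had 1.67%, 2.29% and 0.895% at D0 and 4.49%, 4.01% and 5.09% at D6. Nrcam had 1.33%, 0.959% and 2.91% at D0 and 3.85%, 5.39% and 3.82% at D6. The D6 rates were above the D0 rates for all 3 genes, as for all 3′ UTRs together. Relative to the overall rate of each library, the log2 differences were -0.19 (SE 0.301) for Cdh2, -0.20 (SE 0.285) for Ncam1 and -0.40 (SE 0.453) for Nrcam, with an adjusted p of 1 each in edgeR. No row of 9834 was called in this comparison by edgeR, 676 had an unadjusted p under 0.05, and DESeq2 called 166 and limma 230.

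Label was then followed after its removal. At D0 the rate of Cdh2 at 9 h was 0.076%, 0.058% and 0.137%, below every value at 0 h. This left 5.37% ± 2.46 (SD, n = 3) of the rate at 0 h, against 29.2% ± 1.17 over all 3′ UTRs together. The SD of such a share is that of the 9 h libraries alone and leaves out the spread of the libraries after 15 h of 4sU. With the rate without 4sU subtracted, the shares were 0.987% and 19.5%. Among 7008 rows with a measured share at D0 the median was 17.8% and the first quartile 7.51%, and Cdh2 lay at percentile 18.3. The rate at 9 h, 0.0902% ± 0.0413 (SD, n = 3), was close to that without 4sU, 0.0743% ± 0.106 (SD, n = 3). At 6 h, Cdh2 was still at 1.32% ± 0.382 (SD, n = 3). In edgeR, 4.75% of 9834 rows kept more or less label at 9 h than all 3′ UTRs together, 2.09% more and 2.65% less. Cdh2 was among those with less, at a log2 difference of -2.44 (SE 0.665, adjusted p 0.0213). The median row was at -0.60. The call was lost without D0 replicate 25 (adjusted p 0.181), 26 (0.0820) or 27 (0.0722) at 0 h and without replicate 34 at 9 h (0.0923), and the differences then lay between -2.54 and -2.34. Limma on rates less the background gave -4.06 (adjusted p 0.0689).

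Ncam1 at D0 had 0.221%, 0.088% and 0.259% at 9 h, or 11.7% ± 5.56 (SD, n = 3) of the rate at 0 h, with a log2 difference of -1.31 (SE 0.559, adjusted p 0.208). Nrcam had 0.476%, 0.359% and 0.369%, or 23.2% ± 3.76 (SD, n = 3), with a difference of -0.34 (SE 0.586, adjusted p 0.821). Without replicate 27 at 0 h, the library with a rate of 2.91%, its share was 35.1% and the difference 0.29. Of the epithelial genes, Epcam had rates of 3.32%, 3.01% and 0% at 0 h and of 0.199%, 0.056% and 1.19% at 9 h. Cdh1 had 1.69%, 0.433% and 0% at 0 h and 0.06%, 1.78% and 0.474% at 9 h. The shares left were 22.77% ± 29.15 for Epcam and 108.8% ± 126.6 for Cdh1 (SD, n = 3). With a library left out they lay between 6.05% and 32.8% for Epcam and between 37.7% and 356% for Cdh1. The libraries of both genes overlapped between 0 h and 9 h, and neither passed (adjusted p 0.941 for Epcam and 0.515 for Cdh1), with 95% intervals of -3.20 to 2.44 and -0.96 to 4.72. These tests are relative to all 3′ UTRs together, so whether Cdh1 or Epcam itself lost label was not tested.

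At D6 L1cam had the largest share of label left among the 4 members measured. Its rates were 4.77%, 3.82% and 7.0% at 0 h and 3.08%, 2.13% and 3.53% at 9 h, so that the groups did not overlap. This left 56.1% ± 13.8 (SD, n = 3), against 19.1% ± 1.35 over all 3′ UTRs together. Among 4262 rows with a measured share at D6 the median was 13.01%, and L1cam lay at percentile 95.9. The log2 difference from all 3′ UTRs was 1.56 (SE 0.414) and did not pass in edgeR (adjusted p 0.163), while DESeq2 gave an adjusted p of 0.0221. At 6 h, with 2 libraries, L1cam was at 1.99% ± 1.90, below its value at 9 h. In this comparison 0.885% of rows passed in edgeR, 0.803% with more label and 0.0814% with less, or 79 and 8 rows. The balance turned with DESeq2, at 204 and 702 rows, and with limma, at 32 and 775.

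Ncam1 at D6 had 1.27%, 1.51% and 0.98% at 9 h, or 27.7% ± 5.81 (SD, n = 3) of the rate at 0 h, with a log2 difference of 0.54 (SE 0.183, adjusted p 0.223). Cdh2 had 0.585%, 0.645% and 0.306%, or 10.5% ± 3.71 (SD, n = 3), with a difference of -0.85 (SE 0.506, adjusted p 0.454). Nrcam had 1.03%, 1.15% and 0.562%, or 21.0% ± 7.16 (SD, n = 3), with a difference of 0.14 (SE 0.50, adjusted p 0.951). In both states Cdh2 kept the lowest mean share of the genes measured, but its share overlapped within the SD with those of Ncam1, Epcam and Cdh1 at D0 and of Nrcam at D6.

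**Figure D4:**
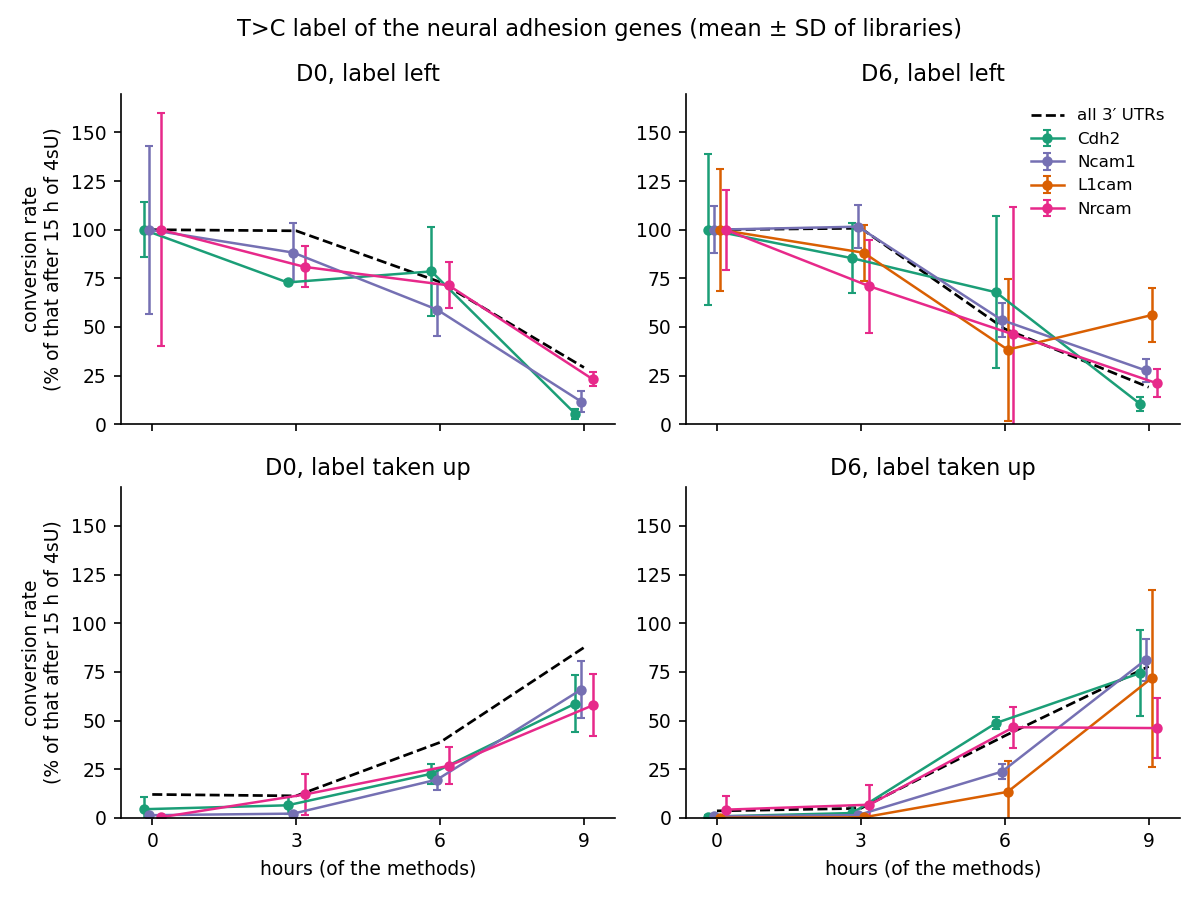
Conversion rate as a percentage of the mean rate after 15 h of 4sU (y axis) over the hours of the methods, for 3 genes at D0 and 4 at D6 and for all 3′ UTRs (dashed), as means ± SD of 3 libraries, or 2 at 6 h of label loss at D6. Bars are cut off at 0. At 9 h after removal Cdh2 stands at 5.37% at D0 and 10.5% at D6, and L1cam at 56.1% at D6.

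The decay of the genes was compared between the states as the slope of the log rate over all catabolic libraries. The slope at D6 less that at D0 was 0.0050 per hour on the log2 scale for Cdh2 (95% interval -0.27 to 0.28, adjusted p 1). It was 0.094 for Ncam1 (95% interval -0.061 to 0.25, adjusted p 0.919) and -0.040 for Nrcam (95% interval -0.35 to 0.27, adjusted p 0.998). Of 9834 rows, 1 was called, or 0.0102%, and 607 had an unadjusted p under 0.05. The slopes were not taken relative to all 3′ UTRs, and the median row stood at -0.10 per hour.

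New label was measured in the anabolic assay. After 9 h of 4sU at D0, Cdh2 had rates of 0.879%, 0.815% and 1.27%, Ncam1 of 1.23%, 0.795% and 1.18% and Nrcam of 1.06%, 1.24% and 0.701%. These means were 58.7% ± 14.6, 65.9% ± 14.6 and 57.8% ± 15.9 (SD, n = 3) of those after 15 h. The share of Nrcam rested on 1 library after 15 h, and without replicate 27 it was 87.5% and its log2 difference 0.023 in place of -0.60. Over all 3′ UTRs together the share was 87.5% ± 3.33 (SD, n = 3). The shares of Epcam and Cdh1 at D0 were 62.7% ± 33.05 and 129.7% ± 67.89 (SD, n = 3). With a library left out they lay between 41.8% and 87.9% for Epcam and between 86.5% and 424% for Cdh1. At D6 Cdh2 had 4.52%, 2.43% and 3.95%, Ncam1 4.19%, 3.64% and 3.21%, Nrcam 2.74%, 1.39% and 1.89%, and L1cam 6.17%, 3.56% and 1.45%. The shares were 74.4% ± 22.1, 81.3% ± 10.9, 46.1% ± 15.6 and 71.8% ± 45.5 (SD, n = 3), against 77.8% ± 12.7 over all 3′ UTRs. No member passed the edgeR test of uptake relative to all 3′ UTRs in either state or of the difference between the states, and no row of 9834 was called in any of the 3 comparisons. An unadjusted p under 0.05 was found for 675 rows at D0, 463 at D6 and 760 for the difference, and DESeq2 called 171, 36 and 98. The differences between the states were 0.34 for Cdh2 (95% interval -0.69 to 1.38), 0.31 for Ncam1 (-0.41 to 1.03) and -0.32 for Nrcam (-1.84 to 1.19) on the log2 scale. They were not taken relative to all 3′ UTRs, and the median row stood at -0.47.

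Half-lives were fitted by an exponential to all libraries of a state and kept where R squared was over 0.6, as in the methods. For decay at D0 this left 1 of 5 genes, Cdh2 at 354 ± 88.9 min (fit error), with an R squared just past the limit at 0.6002, while Ncam1, at 347 ± 92.0 min, was just under it at 0.5992. At D6 it left 1 of 4, Ncam1 at 432 ± 92.5 min. Fits that were not kept gave 344 min for Cdh2, 293 min for Nrcam and 514 min for L1cam at D6. From 0 and 9 h alone, Cdh2 at D0 had a decay half-life of 128 ± 42.9 min with an R squared of 0.97. The fit error of each value covers the distance between Ncam1 at D0 and at D6. Synthesis half-lives were kept for Cdh2, Ncam1 and Nrcam, at 629 ± 106, 606 ± 127 and 583 ± 85.8 min at D0 and 398 ± 73.4, 477 ± 111 and 566 ± 90.8 min at D6. Without replicate 27 at 0 h of the catabolic assay, Nrcam at D0 had 337 min, and from 0 and 9 h alone Ncam1 had 348 min at D0 and was likewise far shorter at D6. Among all 9834 rows the kept medians were 281 min at D0 (14.8% kept) and 218 min at D6 (16.7%) for decay, and 422 min (21.4%) and 380 min (9.51%) for synthesis. With the hours of the sample labels, decay half-lives were 232 min for Cdh2 at D0 and 287 min for Ncam1 at D6. Synthesis half-lives at D6 were then 250 min for Cdh2 and 308 min for Ncam1. A half-life is a description here and was not tested.

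Genes whose level followed that of a member most closely were named by Pearson's correlation of log2 CPM over the means of the 16 groups, among 10000 rows with a mean of at least 5 CPM. The groups share a state and its depth, so that the coefficients mostly describe the difference between D0 and D6. Cdh1 was closest to Dctd (0.974), Atic (0.973) and Hmga1b (0.952), and Epcam to Rarg (0.979), Cluh (0.966) and Arl4c (0.966). Ncam1 was closest to Sox9 (0.994), Elavl3 (0.993) and Tubb3 (0.993), and L1cam to Nr2f1 (0.987), Casz1 (0.986) and Mllt11 (0.986). The coefficients of the 2 genes that overlapped between the states were lower. Cdh2 was closest to Slc30a4 (0.940), Ccl25 (0.935) and Pafah1b1 (0.932), and Nrcam to B3glct (0.899), Phpt1 (0.883) and Rab11fip2 (0.876).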

How the data were processed

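Libraries were made by the QuantSeq 3′ FWD kit after iodoacetamide treatment and sequenced as single reads. The authors mapped them with SLAMdunk 0.3.3 (file headers) to mm10 and deposited, for 39419 3′ UTR intervals per library, counts of reads, covered T positions, T>C conversions and reads with a conversion. The authors also deposited CPM of reads and the conversion rate as a fraction, and these were not used. Reads with several positions were listed as 0 throughout. Condition came from the sample labels, and doses and hours from the study's methods. No batch is given in the sources used here.

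Counts were summed over the intervals of each mRNA transcript, and transcripts with the same intervals were joined into 1 row. RefSeq names were paired with symbols for 28059 of 28190 transcripts. A pair of Ncam1 rows that differ by a few bases held the same reads and was counted as 1. Reads were tested in R 4.3.3 with edgeR 4.0.16 (TMM, filterByExpr, quasi-likelihood test, Benjamini-Hochberg over all rows, threshold 0.05). Standard errors were derived from the fold change and the F statistic, and 95% intervals from them. Conversions were tested the same way on the 9834 rows that averaged 1000 or more covered T positions per library, with covered T times the overall rate of the library as offset, or covered T alone for the differences between states in uptake and in slope. Rates of a member were shown where a library group had enough covered T positions (500 per library). Half-lives were fitted in Python 3.11.15 with numpy 2.4.6 and kept with R squared over 0.6 and up to 5000 min. Counting intervals were computed with scipy 1.17.1. Alternatives used DESeq2 1.42.0, limma 3.58.1, other normalization, filters, coverage minimums, hours, rows and each library left out in turn. Scripts were tested on simulated data. The all-library fit is such an alternative.

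The members and the gene lists were chosen with earlier results of these data known. Besides the members, up to 4 genes of each list with the smallest p without 4sU were named, and the 3 genes with the closest pattern. Ctnnb1, Ctnnd2, Nectin3, Tenm4, Alcam and Chl1 were named after their values were seen. A gene and a sequence window that these rules would name are not reported here.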

Additional observations from a re-analysis of the deposited data

How the results depend on the processing

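No paired analysis was possible because every library has its own number in the labels and no number is shared between groups. Of 854 alternative values for 66 values of the members, 773 kept their direction and their side of the threshold or moved by less than their error, 13 lost a call, 8 gained one, 22 moved by more and 38 changed sign, each of a value called in neither setting. With limma on rates less the background at D0, the differences in label left were 0.29 for Epcam and 0.37 for Nrcam and that in uptake was 1.53 for Epcam, and with 1 row per gene the difference in Nrcam reads after 15 h was 0.016. Other changes of sign came with a library left out, where log2 values ranged as follows. For reads with 15 h of 4sU against none, the difference between the states lay between -6.44 and 0.44 for Cdh1 (highest without D6 replicate 38), -4.31 and 3.29 for Epcam (without D6 replicate 39), -4.39 and 0.36 for the shorter end of Ncam1 (without D0 replicate 27) and -0.042 and 0.29 for Cdh2. Within a state it lay between -0.23 and 0.030 for Cdh2 at D6, -0.38 and 0.0016 for Ncam1 at D0 and -0.12 and 0.37 for Nrcam at D0. Nrcam reads after 15 h differed by -0.17 to 0.23 between the states. Label after 15 h differed by -0.48 to 0.019 for Cdh2, -0.47 to 0.081 for Ncam1 and -0.71 to 0.23 for Nrcam. Label left lay between -2.22 and 0.14 for Epcam and -0.65 and 0.29 for Nrcam at D0, and -0.066 and 0.36 for Nrcam at D6, and the difference in slope for Cdh2 between -0.069 and 0.062. Uptake lay between -0.081 and 2.30 for Cdh1 and -0.91 and 0.023 for Nrcam at D0, and -0.27 and 0.23 for Cdh2, -0.54 and 0.24 for L1cam and -0.067 and 0.24 for Ncam1 at D6, with a difference between the states of -0.028 to 0.60 for Ncam1. Counts of called rows moved more. For reads without 4sU (1357 called), DESeq2 called 2106, every transcript as a row 2115 and all 47 libraries 6486, and leaving out a library gave 793 to 1456, with 793, 882 and 842 without D6 replicates 37, 38 and 39. For reads after 15 h (1504), every transcript gave 2329 and leaving out a library 866 to 1431, the lowest without D6 replicate 7. For 15 h against none, D0 (0) had 2 with DESeq2 and 0 to 0 when a library was left out. D6 (1) had 177 with DESeq2, 40 without a filter, 8 with every transcript and 0 to 3 with a library left out. The difference between the states (1) had 55, 25 and 0 in the same order, 0 with RLE factors and 0 to 6. For label after 15 h (0), a minimum of 5000 covered T gave 4, limma 230, DESeq2 166 and leaving out a library 0 to 2. For label left at D0 (467, of which 206 more and 261 less), a minimum of 200 gave 293, DESeq2 1072 and leaving out a library 252 to 661, the lowest without replicate 34 at 9 h. For D6 (87, of which 79 more and 8 less), a minimum of 5000 gave 137, limma 807, DESeq2 906 and leaving out a library 52 to 117, with 54 and 52 without replicates 7 and 9 at 0 h. The balance of more and less label depended on the tool, at 34 and 487 with limma at D0, 32 and 775 with limma at D6 and 204 and 702 with DESeq2 at D6. For uptake, limma and DESeq2 called 214 and 171 at D0 (0), 56 and 36 at D6 (0) and 100 and 98 for the difference (0), and leaving out a library gave 0 to 0, 0 to 0 and 0 to 6. For the slope (1), a minimum of 200 gave 0, of 5000 gave 2, DESeq2 93, the hours of the labels 67, 0 and 9 h alone 10 and leaving out a library 0 to 3. Kept decay half-lives among the members at D0 (1 of 5) numbered 2 with the hours of the labels, 2 with 0 and 9 h alone, 0 after background subtraction and 0 to 2 with a library left out, an alternative added after seeing the data, as was leaving out a library for the shares of label. At D6 (1 of 4) they numbered 2, 3 and 1 to 3 with the hours of the labels, 0 and 9 h alone and a library left out. With the hours of the labels, Cdh2 decayed with a half-life of 232 min at D0 and Ncam1 with 287 min at D6, and their synthesis half-lives at D6 were 250 and 308 min. The cause of these shifts was not tested. Krt8, Krt18, Cldn6 and Cldn7 had too few reads for a rate in either state, and Cdh1 and Epcam at D6.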
